A study of Mus musculus with 8 samples.

Results

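The 9 genes described here encode the subunits of the AMPA receptors (Gria1, Gria2, Gria3 and Gria4) and of the kainate receptors (Grik1, Grik2, Grik3, Grik4 and Grik5), the ionotropic receptors that carry fast glutamate signals. They were taken by symbol from the feature tables, which hold 33696 genes, and all 9 were found. The values come from single-nucleus RNA sequencing of mouse retina in 8 libraries, each made from 6 pooled retinae at postnatal day 120. The 4 control libraries (replicates 1, 2, 3 and 4) carried floxed Piezo2 alleles without Cre (Piezo2f/f), and the 4 cKO libraries (replicates 10, 11, 12 and 13) carried the same floxed alleles with Cre from the Olig2 locus (Olig2-cre;Piezo2f/f). Floxed Piezo2 is therefore shared by both groups, while the cKO mice in addition carried the Cre insertion in 1 copy of Olig2, a transcription factor gene of the oligodendrocyte lineage. Piezo2, the targeted gene, encodes a mechanosensitive cation channel. The mice were on a C57BL/6J background and were female. Nuclei had been sorted as NeuN+ and RBPMS+, which favours retinal ganglion cells (RGCs), so all other retinal classes in these libraries are those that passed the sort. The labels do not say which retinae of a pool came from the same mouse. The p-values of genotype comparisons within a class measure the spread between pools. Those of comparisons between classes, types or gated nuclei measure how their difference within a library varied between pools. Control and cKO libraries carry separate runs of sample numbers, and while the methods state that handling of samples was randomised by condition, no preparation batch is given by library, so none could be fitted.

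AMPA and kainate receptors are tetramers that open a cation pore when glutamate binds. In the retina, photoreceptors and bipolar cells release glutamate. OFF cone bipolar cells, horizontal cells, amacrine cells and RGCs receive it through AMPA and kainate receptors, whereas ON bipolar cells receive it through the metabotropic receptor mGluR6, the product of Grm6, which inverts the sign of the response. Gria2 encodes the subunit that makes AMPA receptors nearly impermeable to calcium, Grik1 to Grik3 encode kainate subunits that can form channels alone, and Grik4 and Grik5 encode high-affinity kainate subunits that need one of the former as a partner.

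The 9 subunits share a short stretch of the pore loop that holds the Q/R site, the codon at which the RNA of Gria2, Grik1 and Grik2 can be edited by the adenosine deaminase that Adarb1 encodes. It is shown because all 9 members share it and because the residue at this codon is known to set calcium entry. Each line gives 27 coding bases, 5′ to 3′ on the coding strand, from the transcript that GENCODE vM39 tags as canonical, with the Q/R codon in capitals.
Gria1: ttctcgctgggggccttcatgCAGcaa
Gria2: ttttccttgggtgcctttatgCAGcaa
Gria3: ttttccttgggtgcttttatgCAGcaa
Gria4: ttttccctgggtgcctttatgCAAcaa
Grik1: tttggcgttggagctctcatgCAGcaa
Grik2: tttggagttggagctctcatgCAGcaa
Grik3: tttggaatgggctccctgatgCAGcaa
Grik4: tttccggttggaggcttcatgCAGcaa
Grik5: ttccccgtgggtggcttcatgCAGcag
The stretch was located by the amino acids MQQG (methionine, glutamine, glutamine, glycine), and the marked codon is that of the first glutamine. It therefore reads glutamine in all 9 genes of the reference by construction. The codon is CAG in every gene except Gria4, where it is CAA. Pairs of AMPA genes shared 21 to 26 of the 27 bases, pairs of kainate genes 16 to 26, and an AMPA gene with a kainate gene 17 to 21. The Gria2 stretch lies at chr3:80614215-80614241 on the minus strand of GRCm39, in exon 11 of a transcript of 16 exons. The Grik1 stretch lies at chr16:87737427-87737453, also on the minus strand, in exon 12 of 16. Editing itself cannot be read from UMI counts per gene.

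The genes are long and lie on 8 chromosomes. Grik2 spans 694.0 kb of chromosome 10 (chr10:48970929-49664880), Grik1 394.4 kb of chromosome 16 (chr16:87692788-88087153), and Grik5, the shortest, 63.4 kb of chromosome 7 (chr7:24709269-24772708). Because nuclear RNA is rich in introns and a longer gene offers more priming sites, levels were compared between cell classes or genotypes for 1 gene at a time and never between genes. Grik2 overlaps the annotated genes Gm26543 and Gm47018 on its own strand, and its counts are uncertain to that extent. Grik1, Grik4 and Grik5 each overlap 1 gene on the opposite strand.

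The libraries held 35697629 to 60088630 UMIs (unique molecular identifiers, each a counted RNA molecule), and 34935 nuclei remained after quality control and doublet removal, 15880 of them control and 19055 cKO. The median UMI count per nucleus ranged from 3655.5 to 9485 between libraries. Of the 34796 distinct barcodes, 139 (0.399%) occurred in more than 1 library. Nuclei were assigned by UMIs of marker panels that contain no subunit gene, which placed 29862 nuclei (85.5%) in a class: 21993 RGC, 2728 amacrine, 2140 rod, 1565 bipolar, 908 Mueller glia, 328 cone and 200 horizontal nuclei. Horizontal nuclei exceeded 10 in 3 libraries only (control replicate 1, cKO replicates 10 and 11), and 47.5% of them lay within 1.5 times of the gate. Piezo2 was low in RGCs in both groups, between 12.0 and 16.6 UMIs per 1000000 (CPM) in control and between 8.68 and 14.8 in cKO libraries, and these ranges overlapped. In other GABAergic amacrine nuclei it was at 0.0 to 6.59 CPM in control and at 0.736 to 8.09 in cKO libraries. The methods name the exons that the knockout removes, and UMI counts per gene do not set these exons apart from the rest of Piezo2, so the counts are no check of the deletion.

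Levels are given as CPM, UMIs per 1000000 of all UMIs summed over the nuclei of a class in a library. As a measure of free RNA, the level in empty droplets of the same library was computed, and for Gria2 it ranged from 377 to 543 CPM. Rods, cones, rod bipolar cells and Mueller glia were below it for Gria2 in all 8 libraries. For Gria3, rods, cones, Mueller glia and all bipolar types were below it in every library as well.

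**Figure D1:**
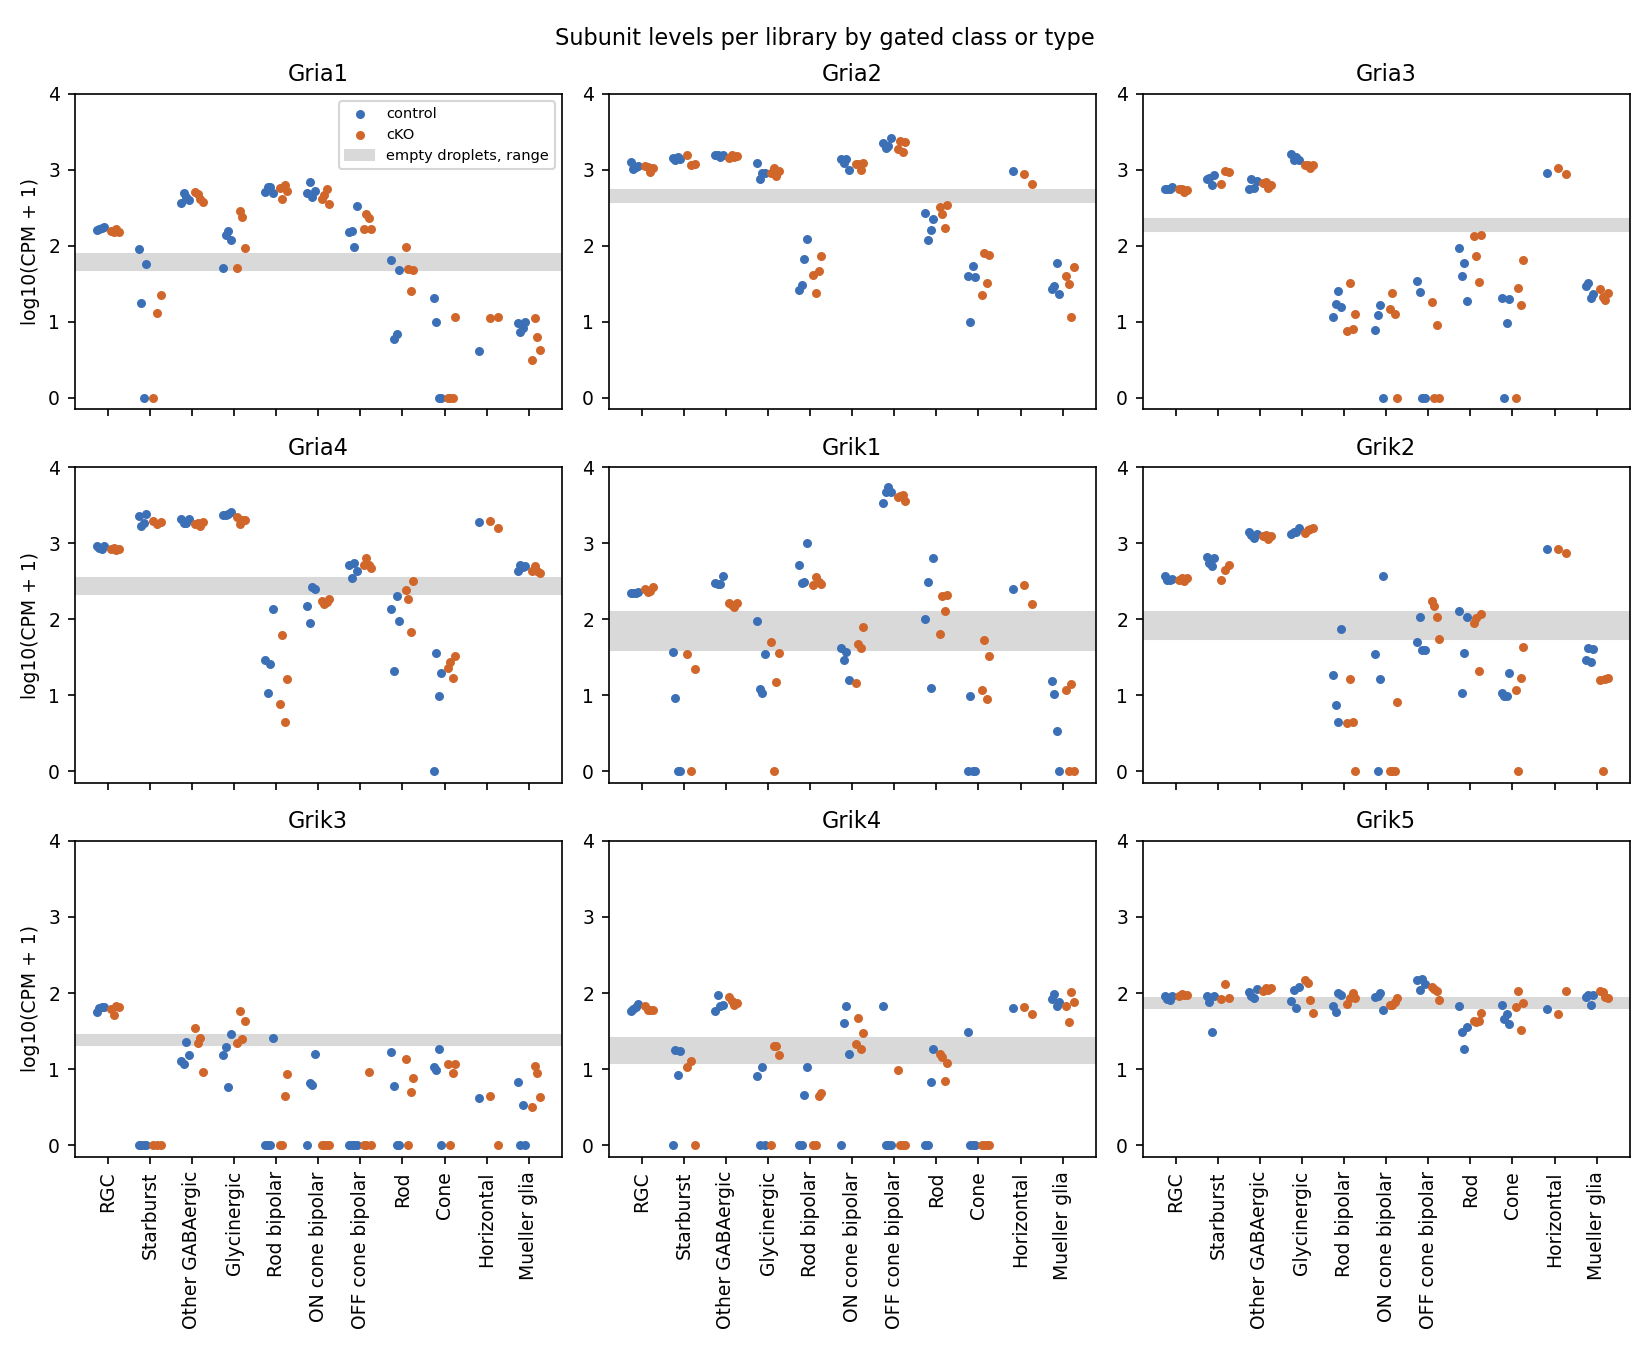
Level of each subunit as log10(CPM + 1) in every library (blue control, orange cKO) by gated class or type, with the grey band showing the range of the 8 empty-droplet levels. Grik1 stood near 4300 CPM in OFF cone bipolar nuclei, and rods, cones and Mueller glia lay in or below the band for most subunits.

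Within each gene the 11 classes and types were put in order of their mean level, and neighbours in that order were compared within libraries (two-sided exact paired permutation test, 90 pairs). After Benjamini-Hochberg adjustment 0 of 90 neighbouring pairs passed the threshold of 0.05, and the smallest adjusted p was 0.0639. With 8 libraries the smallest p this test can give is 0.00781, which limits what it can show. Steps with the same direction in 8 of 8 libraries include OFF cone bipolar above rod bipolar nuclei for Grik1, RGCs above rods for Gria3, and Mueller glia above ON cone bipolar nuclei for Gria4. Other neighbours changed order, such as RGC and other GABAergic amacrine nuclei for Grik1, where RGCs were lower in all 4 control libraries and higher in all 4 cKO libraries.

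The first comparison asked how the subunits differ between retinal classes. RGCs, the class the sort was aimed at, served as the reference. Counts were summed per library and class and tested across all genes with edgeR's quasi-likelihood test with the library as a block, and a gene was called at a Benjamini-Hochberg adjusted p below 0.05 with an absolute log2 fold change over 0.5. Over 10 comparisons of classes and types, 80 subunit tests could be made and 60 were called, 14 higher and 46 lower. A gene at few UMIs in one class of a pair entered the test through the class where it was high, so the size of such a fold rests on few molecules. Calls were common among all genes, and each count below is set beside the share of genes called in the same comparison.

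Amacrine cells had more Gria1, Gria4 and Grik2 and less Grik3 than RGCs. These are 4 of 9 subunits, where 25.8% of 12068 genes were called. Gria4 ranged from 1740 to 2152 CPM in amacrine nuclei (median 1878, n = 8) and from 808.5 to 918 in RGCs (median 854.5). The ranges did not overlap, and the log2 fold change was 1.06 ± 0.12 (SE, edgeR adjusted p = 7.4e-12). Gria1 rose from a median of 162 CPM in RGCs to 375 in amacrine nuclei (log2 fold change 1.14 ± 0.07, edgeR adjusted p = 3.2e-24). Grik2, a principal kainate subunit, differed most, with 319 to 368 CPM in RGCs and 1151 to 1361 in amacrine nuclei and no overlap. Its log2 fold change was 1.79 ± 0.08 (edgeR adjusted p = 7.8e-31). Grik3 fell by 1.68 ± 0.10 on the log2 scale, from 50.4 to 66.0 CPM in RGCs to 15.3 to 31.0 CPM in amacrine nuclei, close to the 19.5 to 26.7 CPM of empty droplets. Gria2, Gria3, Grik1, Grik4 and Grik5 did not pass both thresholds, with log2 fold changes from -0.43 to 0.28.

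Bipolar cells as a class had more Gria1 and Grik1 and less of 6 other subunits, so 8 of 9 were called where 47.4% of all genes were. Grik1 ranged from 790 to 1663 CPM in bipolar nuclei (median 1239) against 222 to 266 in RGCs (log2 fold change 2.32 ± 0.12, edgeR adjusted p = 1.4e-27). Gria3, an AMPA subunit gene on the X chromosome, was at 6.96 to 21.1 CPM in bipolar nuclei, below the empty droplets in all 8 libraries, and at 504 to 584 in RGCs (log2 fold change -5.48 ± 0.15). Grik2 stood at a median of 25.7 CPM, below the empty-droplet level in 7 of 8 libraries. Gria4, Grik2, Grik3 and Grik4 fell by 2.36, 3.47, 4.54 and 2.17 on the log2 scale, and Gria1 rose by 1.44 ± 0.08. Grik5, the subunit gene that was not called, had means of 92.9 ± 11.7 CPM in bipolar nuclei and 89.7 ± 5.59 in RGCs (SD, n = 8). The call for Gria2 sat at the fold threshold (log2 fold change -0.50) and was lost in 6 of the alternative analyses.

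Horizontal cells, inhibitory interneurons of the outer retina that receive photoreceptor glutamate, had more Gria3, Gria4 and Grik2 than RGCs and less Gria1, Grik3 and Grik5, in a comparison where 28.1% of genes were called. Gria4 was at 1582, 1916 and 1947 CPM in the 3 libraries (log2 fold change 1.07 ± 0.18, edgeR adjusted p = 1.3e-06). Grik2 was at 733, 832 and 832.5 CPM (log2 fold change 1.22 ± 0.16). Gria1 was at 3.15 to 10.5 CPM, under the empty-droplet level in all 3 libraries. The calls for Gria3 (log2 fold change 0.74 ± 0.13) and Grik5 (-0.52 ± 0.21) were lost in 2 and 8 of the alternative analyses.

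Rods and cones, which release glutamate, had less of all 9 subunits than RGCs, and 58.8% and 50.8% of genes were called in these comparisons. In cones the log2 fold changes ran from -5.94 for Gria4 to -1.12 for Grik5, and the median of all tested genes was itself -0.26. Cones held between 3 UMIs (Grik4) and 41 UMIs (Grik5) of a subunit over all 8 libraries, so the sizes of these folds rest on few molecules. Gria2 in cones was at 8.79 to 79.8 CPM (median 38.4) against 924 to 1251 in RGCs. In rods the 9 log2 fold changes had a median of -2.51. Grik1 in rods was uneven, at 11.7, 101, 310 and 647 CPM in control replicates 3, 1, 2 and 4. In cKO libraries it was at 63.5 to 210 CPM. Averaged over control libraries, 1.86% of rod nuclei carried a Grik1 UMI. Those nuclei had library means of 3.56, 31.5, 1.0 and 55.5 Grik1 UMIs in control replicates 1 to 4. The corresponding means in OFF cone bipolar nuclei were 11.3, 20.6, 19.3 and 30.4. The median rod nucleus held about 1098 UMIs, averaged over control libraries. In control replicates 2 and 4 the 63 and 111 Grik1 UMIs of rods came from 2 nuclei each. The rod call for Grik1 was lost with total counts in place of TMM scaling (log2 fold change -0.37), and its direction turned from -0.72 to 1.04 when nuclei were called by the order-of-magnitude step alone.

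Mueller glia, the radial glia of the retina, stood above the empty droplets for Gria4, Grik4 and Grik5 in most libraries. Gria4 ranged from 407 to 516.5 CPM in Mueller glia (median 461), above the empty droplets of the same library in 8 of 8 libraries, although lower than in RGCs (log2 fold change -1.04 ± 0.14, edgeR adjusted p = 5.4e-10). Grik4 stood at 40.4 to 101.5 CPM, against 57.7 to 71.4 in RGCs, and did not pass the test (log2 fold change 0.21 ± 0.13, edgeR adjusted p = 0.17). For Grik5 the log2 fold change was -0.12 ± 0.10. Gria1, Gria2, Gria3, Grik1, Grik2 and Grik3 fell by 3.95 to 5.13 on the log2 scale and were below the empty-droplet level in all 8 libraries. With Gria4, these are 7 of 9 subunits called, where 53.6% of genes were. These sums also held Flt1, a gene of the 6-gene endothelial panel, at 1805 to 2109 CPM, against 1.87 to 5.52 in RGCs, while Cldn5 and Cdh5, the defining endothelial markers, were at 0 and the whole panel summed to 1814 to 2115 CPM. The pericyte panel summed to 130 to 242 CPM, nearly all of it Pdgfrb, with Kcnj8 at 0. The 7-gene Mueller panel summed to 4738 to 6931 CPM and the rod panel to 965 to 2004 CPM, and the part of the latter in these levels was not tested.

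**Figure D2:**
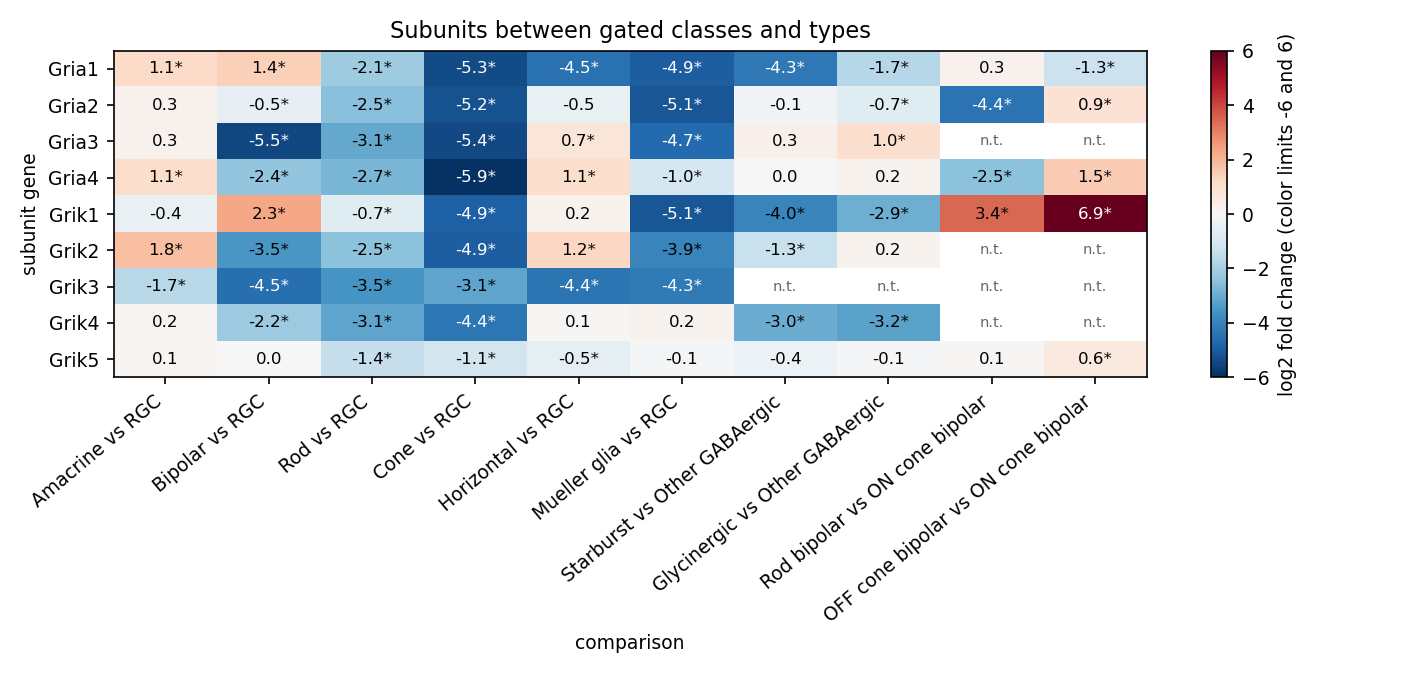
Log2 fold change of each subunit in 10 comparisons of gated classes and types (rows, genes; columns, comparisons; red higher and blue lower in the first-named class; a star marks a call, n.t. not tested). Grik1 is at 6.87 in OFF against ON cone bipolar nuclei, with 41 UMIs in the latter, and near -5 in cones and Mueller glia, with 8 and 19 UMIs there.

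Among amacrine types, nuclei were split into starburst cells, the cholinergic neurons of the direction-selective circuit (147 nuclei, tested in 7 libraries since cKO replicate 11 had 5), other GABAergic nuclei (984) and glycinergic nuclei (373). Against other GABAergic nuclei, starburst nuclei had less Gria1, Grik1, Grik2 and Grik4, 4 of 8 subunits tested where 36.5% of 4920 genes were called. Gria1 was at 0.0 to 90.2 CPM in starburst nuclei (median 16.7, n = 7) and at 363 to 502 in other GABAergic nuclei (log2 fold change -4.30 ± 0.38, edgeR adjusted p = 1.5e-10). Grik1 was at 0.0 to 36.1 CPM against 145 to 371 and was under the empty-droplet level in all 7 libraries (log2 fold change -3.95 ± 0.40, edgeR adjusted p = 1.8e-09). Starburst nuclei held 18 UMIs of Gria1, 13 of Grik1 and 8 of Grik4 in all, and these genes were tested through the other GABAergic nuclei, where they were high. Grik2 stood between 330 and 649 CPM and was lower than the 1124 to 1414 CPM of other GABAergic nuclei. No Grik3 UMI was seen among the 863949 UMIs of these starburst nuclei, a count that allows up to 3.47 CPM (3 counts over the group, counting error only) and is at least 17.6-fold lower than in RGCs. Gria2 and Gria4 did not pass the test, at 1354 ± 152 and 1994 ± 282 CPM in starburst nuclei (SD, n = 7).

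Glycinergic nuclei had more Gria3 and less Gria1, Gria2, Grik1 and Grik4 than other GABAergic nuclei, 5 of 8 subunits where 34.9% of genes were called. Gria3 ranged from 1050 to 1598 CPM (median 1236) against 561 to 742, with no overlap (log2 fold change 0.98 ± 0.10, edgeR adjusted p = 3.9e-09). Gria2 fell by 0.72 ± 0.09 on the log2 scale. Grik1 was at 0.0 to 92.8 CPM and above the empty-droplet level in 1 of 8 libraries, and Grik4 was at 8.62 ± 8.21 CPM against 73.8 ± 12.0 (SD, n = 8). Of the 3 amacrine types, the other GABAergic nuclei thus held the higher Grik1 and Grik4, while Grik2 was at 1469 ± 103 CPM in glycinergic and 1263 ± 91 CPM in other GABAergic nuclei and was not called.

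Grik1, Gria2 and Gria4 were called in both comparisons of bipolar types, out of 5 subunits that could be tested. Nuclei were split into rod bipolar (669), ON cone bipolar (343) and OFF cone bipolar nuclei (185), the last defined by the absence of Grm6 and by a panel without subunit genes. In OFF cone bipolar nuclei the 5-gene ON bipolar panel summed to 1252 to 2168 CPM in control and to 1431 to 2222 in cKO libraries. All its genes but Grm6 were detected. In rod bipolar nuclei it summed to 6552 to 7147 and 6355 to 7702 CPM. The part of ON nuclei or their RNA in the OFF levels was not tested. The rest of the 1565 bipolar nuclei met no type gate and are outside these levels. The class held 5976 Grik1 UMIs, so a large part of bipolar Grik1 lay in nuclei of no type. Grik1 was at 3356, 4661, 5501 and 4711 CPM in OFF cone bipolar nuclei of control replicates 1 to 4 and at 4056, 4196, 4354 and 3564 CPM in cKO replicates 10 to 13. In ON cone bipolar nuclei it was at 40.4, 27.9, 36.1 and 14.9 CPM in control and at 13.8, 45.8, 40.8 and 78.7 CPM in cKO libraries. Every OFF library was more than an order of magnitude above every ON library, and the ON values were above the empty-droplet level in 1 of 8 libraries. The log2 fold change was 6.87 ± 0.26 (edgeR adjusted p = 6.7e-19). ON cone bipolar nuclei held 41 Grik1 UMIs in all, against 2632 in OFF cone bipolar and 830 in rod bipolar nuclei, so Grik1 entered both tests through the classes where it was high and the size of both folds rests on those 41 UMIs.

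OFF cone bipolar nuclei also had more Gria2 (log2 fold change 0.88 ± 0.15), Gria4 (1.52 ± 0.24) and Grik5 (0.61 ± 0.21) and less Gria1 (-1.27 ± 0.18) than ON cone bipolar nuclei. All 5 subunits tested were called, where 19.4% of 3222 genes were. The Grik5 call had an edgeR adjusted p of 0.047 and was lost in 14 of the alternative analyses. Gria2 ranged from 1680 to 2607 CPM in OFF and from 995 to 1380 in ON cone bipolar nuclei, without overlap. Gria4 ranged from 346 to 631 CPM in OFF and from 89.4 to 263 in ON cone bipolar nuclei, also without overlap.

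Rod bipolar cells, the ON bipolar cells of the rod pathway, combined a high Gria1 with a low Gria2. Gria2 was at 23.1 to 122 CPM (median 42.5) in rod bipolar nuclei, below the empty droplets in 8 of 8 libraries, and was 4.42 ± 0.19 lower on the log2 scale than in ON cone bipolar nuclei (edgeR adjusted p = 1.1e-17). Gria1, by contrast, was at 409 to 631 CPM in rod bipolar and 350 to 676 in ON cone bipolar nuclei and did not pass the test (log2 fold change 0.27 ± 0.13, edgeR adjusted p = 0.11). Gria4 was lower (-2.48 ± 0.32). Grik1 was higher in rod than in ON cone bipolar nuclei (3.42 ± 0.28, edgeR adjusted p = 1.1e-11), at 286 to 355 CPM in 6 libraries, 524 in control replicate 1 and 1006 in control replicate 4. Together 3 of 5 subunits tested were called, where 34.0% of genes were.

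**Figure D3:**
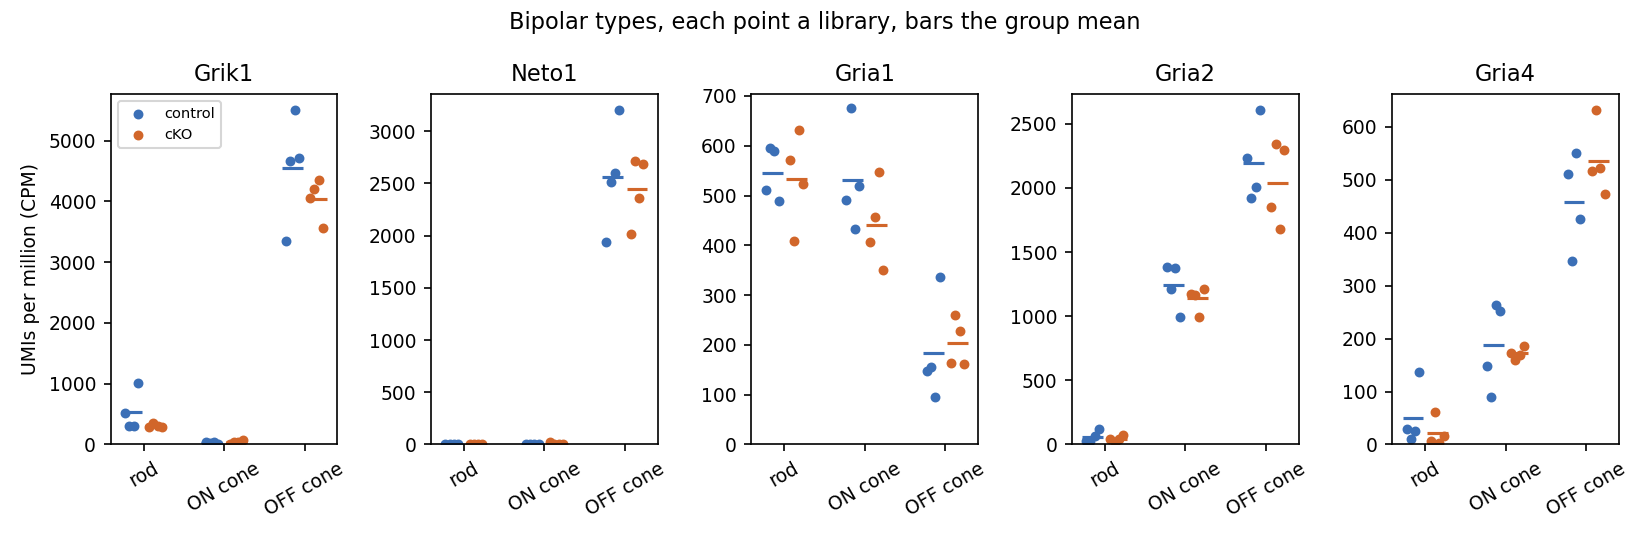
CPM (linear axes from 0) of Grik1, its auxiliary subunit gene Neto1, Gria1, Gria2 and Gria4 in rod, ON cone and OFF cone bipolar nuclei, each point 1 library (blue control, orange cKO) and each bar a group mean. Grik1 and Neto1 are high in OFF cone bipolar nuclei of all 8 libraries, and Gria2 is close to 0 in rod bipolar nuclei.

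Auxiliary subunits and partners of these receptors were followed as a list of 27 genes: TARPs (Cacng genes), cornichons, Shisa genes, Gsg1l, Neto genes, scaffold and sorting proteins, pentraxins, olfactomedins, the deaminase gene Adarb1 and its relative Adarb2, whose product lacks known deaminase activity. Neto1 encodes an auxiliary subunit of kainate receptors. It was at 1941, 2515, 2599 and 3201 CPM in OFF cone bipolar nuclei of control replicates 1 to 4 and at 2015, 2710, 2364 and 2686 CPM in cKO replicates 10 to 13. In ON cone bipolar nuclei 5 libraries had 0 UMIs of Neto1 and the highest had 20.6 CPM. In all, Neto1 had 1510 UMIs in OFF and 5 UMIs in ON cone bipolar nuclei, so it passed the filter on low counts through the OFF nuclei and the size of its fold rests on those 5 UMIs (log2 fold change 8.89 ± 0.26, edgeR adjusted p = 1.4e-21). Shisa6, an AMPA receptor auxiliary subunit, was also higher (3.44 ± 0.37). Of 8 listed genes tested, 4 were higher and 1 lower in OFF than in ON cone bipolar nuclei (19.4% of all genes called), Adarb2 being lowest (-1.37 ± 0.45) and Cacng7 next (-0.17 ± 0.32, not called). Between rod and ON cone bipolar nuclei, 0 were higher and 4 of 8 lower (34.0% of all genes called), among them Adarb2 (-6.65 ± 0.62, 25 UMIs in rod bipolar nuclei) and Grip1, which encodes an AMPA receptor scaffold (-2.81 ± 0.22). The highest 2, Dlg1 (0.21 ± 0.16) and Cacng7 (0.12 ± 0.24), were not called.

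Against RGCs, 12 of the 26 listed genes tested were higher and 6 lower in amacrine nuclei, where 25.8% of all genes were called. Adarb2 (3.66 ± 0.10) and Olfm3, an AMPA receptor-associated olfactomedin (2.98 ± 0.09), were highest and Olfm1 (-1.70 ± 0.07) and Olfm2 (-1.60 ± 0.07) lowest. In bipolar nuclei (47.4% of all genes called) 4 were higher and 18 lower, with Neto1 (5.37 ± 0.12) and Adarb2 (4.22 ± 0.10) among the higher and Neto2 (-3.84 ± 0.16, 35 UMIs in bipolar nuclei) among the lower. Cacng8, a TARP gene, had 2 UMIs in bipolar nuclei and was 36.0-fold lower than in RGCs, with an exact 95% counting interval of 9.96 to 297.5-fold (counting error only). In rods (58.8%) 2 were higher, Dlg4, which encodes the synaptic scaffold PSD-95 (2.88 ± 0.07), and Dlg1 (1.64 ± 0.08). A further 21 were lower in rods, among them Grip1 (-3.42 ± 0.18, 527 UMIs in rods) and Cacng8 (-3.53 ± 0.44), which had 4 UMIs there. In cones (50.8%) 4 were higher, led by Dlg4 (2.74 ± 0.10) and Shisa6 (1.81 ± 0.13), and 20 were lower. Cacng3 was among the lower ones in cones, with 1 UMI there and 10500 in RGCs, a 44.0-fold lower level with an exact 95% counting interval of 7.89 to 1737-fold. Neto1 had 0 UMIs in all 8 cone libraries, which makes it at least 1.91-fold lower than in RGCs (3 counts over the group) and gives it no rank.

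In horizontal nuclei (28.1% of all genes called) 4 listed genes were higher, led by Adarb2 (5.33 ± 0.15) and the TARP gene Cacng3 (3.46 ± 0.14), and 14 lower. Cacng4 and Shisa7 had 0 UMIs in the 3 libraries tested, which makes them at least 17.2-fold and 5.72-fold lower than in RGCs (3 counts over the group). In Mueller glia (53.6%) 3 were higher, led by Shisa9 (3.26 ± 0.09) and Cacng4 (2.04 ± 0.08), and 19 lower, among them Cacng2 (-3.71 ± 0.21, 18 UMIs in Mueller glia). Grip2 had 3 UMIs in Mueller glia and was 27.6-fold lower than in RGCs, with an exact 95% counting interval of 9.43 to 133.7-fold. Starburst against other GABAergic nuclei gave 4 higher and 9 lower of 16 tested (36.5% of all genes called). Cacng2 (1.49 ± 0.12) and Cacng5 (1.14 ± 0.20) were highest there, while Neto2 (-3.84 ± 0.38) and Shisa9 (-3.60 ± 0.98), among the lower ones, had 7 and 4 UMIs in starburst nuclei. Glycinergic nuclei (34.9%) gave 3 higher, led by Shisa6 (2.74 ± 0.13) and Cacng5 (1.63 ± 0.15), and 6 lower, led by Adarb2 (-1.44 ± 0.23) and Nptx1, a pentraxin gene (-1.38 ± 0.26). Over the 10 comparisons 158 of 204 tests on the list were called, 40 higher and 118 lower, where between 19.4% (OFF against ON cone bipolar) and 58.8% (rods) of all genes were called. With nuclei thinned to 1000 UMIs, where the filter on low counts was applied anew, the count of calls was 104.

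Within RGCs, 6 marker genes each split the nuclei into a gated group and all other RGC nuclei: Opn4, the melanopsin gene of intrinsically photosensitive RGCs (267 gated nuclei), Foxp2 (3218), Tbr1 (672), Cartpt, a marker of ON-OFF direction-selective RGCs (1789), Spp1, a marker of alpha RGCs (760), and Zic1 (233). Of 54 subunit tests 23 were called, and Gria1 and Grik3 were called in all 6 gates. The other RGC nuclei of a gate include the Foxp2 nuclei that did not pass it. Foxp2 nuclei had the highest Gria1 and Grik3 of the 6 gated groups, so the folds of these genes in other gates depend on that reference. Gated nuclei were deeper than the rest in every gate except Foxp2 (mean over libraries of the median UMI count 6952 against 7544). The mean was 7944 to 9339 for Zic1, Opn4, Tbr1 and Cartpt, against 7273 to 7439 in the rest, and 16580 against 7312 for Spp1, and all 3 Spp1 calls held with nuclei thinned to 1000 UMIs.

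Foxp2 nuclei had more Gria1, Grik3 and Gria2, in a comparison where 12.3% of 15725 genes were called. Gria1 ranged from 580 to 689 CPM in Foxp2 nuclei and from 77.5 to 94.4 in the other RGCs, without overlap (log2 fold change 2.95 ± 0.03, edgeR adjusted p = 4.1e-36). Grik3 ranged from 145 to 205 CPM in Foxp2 nuclei and from 38.3 to 44.9 in the others (2.12 ± 0.03, edgeR adjusted p = 3.6e-31). These were the largest rises of either gene among the 6 gates, and Gria2 followed at 0.53 ± 0.02, a call that was lost without the filter on low counts (0.495).

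Spp1 nuclei showed the opposite for the same genes: Gria1 was at 5.25 to 18.5 CPM and Grik3 at 2.12 to 7.33, both below the empty-droplet levels of 46.9 to 77.1 and 19.5 to 26.7 CPM. Gria1 fell by 3.61 ± 0.09, Grik3 by 3.62 ± 0.12 and Grik1 by 0.99 ± 0.07 on the log2 scale, 3 of 9 subunits where 23.3% of genes were called. Gria4 was at 1118 ± 47 CPM in Spp1 nuclei and 840 ± 41 in the other RGCs (SD, n = 8), a log2 fold change of 0.44 that did not reach the fold threshold.

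Opn4 nuclei had more Grik4 (1.17 ± 0.10), Grik2 (0.77 ± 0.07) and Gria1 (0.51 ± 0.08) and less Grik3 (-1.99 ± 0.19), Grik1 (-1.83 ± 0.12), Gria3 (-1.67 ± 0.09) and Gria2 (-0.56 ± 0.06), 7 of 9 where 14.6% of genes were called. Gria3 ranged from 104 to 286 CPM in Opn4 nuclei and from 508 to 591 in the other RGCs. Among the 6 gates Gria3 was called only here. The Gria1 rise in Opn4 nuclei was lost in 7 alternative analyses, with a log2 fold change of 0.14 under the stricter gate, and the fall of Gria2 was lost with total counts only (-0.497).

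Zic1 nuclei had more Grik4 (1.80 ± 0.10) and Grik3 (1.07 ± 0.12, not called with nuclei thinned to 1000 UMIs) and less Gria1 (-2.38 ± 0.15) and Grik1 (-0.86 ± 0.10), 4 of 9 where 9.38% of genes were called. Grik4 ranged from 153 to 234 CPM in Zic1 nuclei and from 55.9 to 69.6 in the other RGCs, without overlap. Cartpt nuclei had less Gria1 (-1.68 ± 0.06), Grik4 (-1.42 ± 0.08) and Grik3 (-1.03 ± 0.06), where 10.7% of genes were called. Tbr1 nuclei had less Grik3 (-1.71 ± 0.11), Gria1 (-1.03 ± 0.09) and Grik2 (-0.51 ± 0.06), where 4.9% were. Gria1 was at 82.0 ± 27.3 CPM in Tbr1 nuclei and 165.6 ± 8.62 in the other RGCs, but at 85.6 ± 6.03 in RGCs outside the Foxp2 gate (SD, n = 8). Less Gria1 in Tbr1 nuclei was thus not shown apart from the Foxp2 nuclei in the reference. The Grik2 call was lost without cKO replicate 10, 11 or 12, at log2 fold changes of -0.49, -0.49 and -0.46. The high-affinity subunit gene Grik4 thus moved in opposite directions in Zic1 and Cartpt nuclei.

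**Figure D4:**
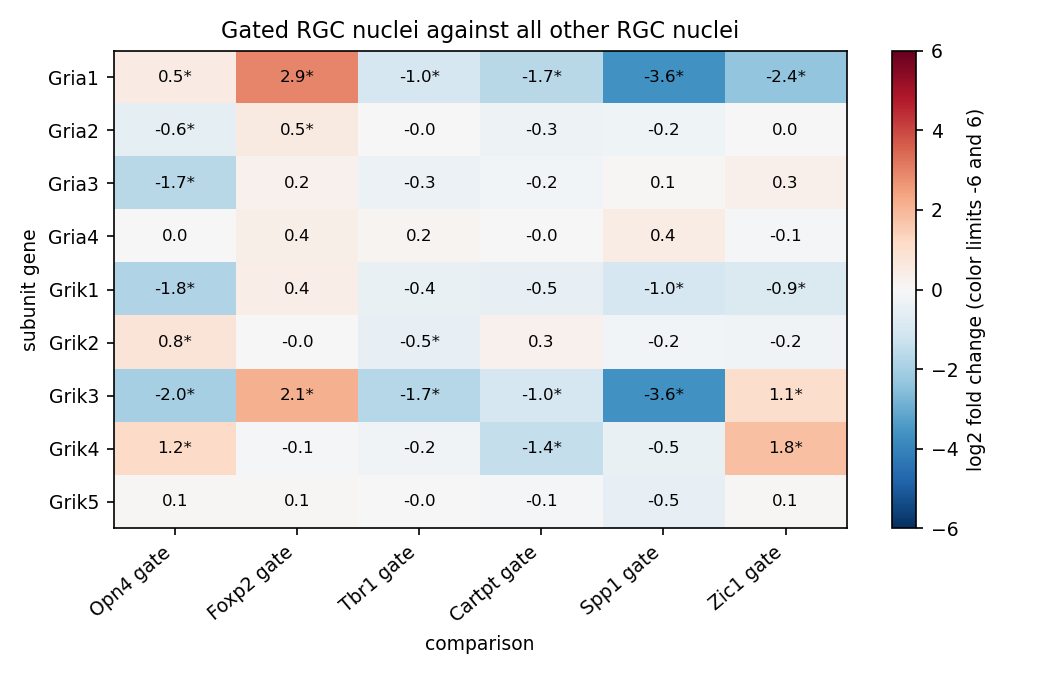
Log2 fold change of each subunit (rows) in RGC nuclei that passed each marker gate (columns) against all other RGC nuclei, over 8 libraries, with a star for a call. Gria1 and Grik3 run from about 3 and 2 in Foxp2 nuclei to about -3.6 in Spp1 nuclei.

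The second comparison asked whether the subunits differ between cKO and control libraries within a class, for RGC, amacrine, bipolar, rod, cone and Mueller glia nuclei. edgeR called 0 subunits in these 6 classes, and 0 of all genes (0.0% in each class). In RGCs, 601 of 18160 genes had an unadjusted p below 0.05, and DESeq2 called 3 genes, none of them a subunit. Gria1, Gria2, Gria3 and Gria4 were among those 601, with log2 fold changes of -0.16 ± 0.07, -0.17 ± 0.07, -0.12 ± 0.05 and -0.15 ± 0.05 and an edgeR adjusted p of 0.994 each. The kainate genes ranged from -0.14 for Grik4 to 0.07 for Grik1. In amacrine nuclei 534 of 12919 genes, in bipolar nuclei 255 of 8454, in rods 279 of 5565, in cones 89 of 2145 and in Mueller glia 191 of 6000 had an unadjusted p below 0.05. DESeq2 called 4, 0, 1, 0 and 0 genes in these classes. The subunits with an unadjusted p below 0.05 were Gria3 (log2 fold change -0.18 ± 0.07), Gria4 (-0.17 ± 0.08) and Grik1 in amacrine nuclei and Gria2 (-0.25 ± 0.11) and Grik1 in bipolar nuclei. Gria3 was at 733, 770, 732 and 721.5 CPM in amacrine nuclei of control replicates 1 to 4 and at 685, 679, 631 and 694 CPM in cKO replicates 10 to 13, without overlap. Of all genes tested in amacrine nuclei, 128 (0.991%) had every cKO library below every control library, and 3.12% separated in either direction. In glycinergic nuclei, where edgeR again called 0.0% of genes, Gria3 was at 1324 to 1598 CPM in control and at 1050 to 1149 in cKO libraries, also without overlap (log2 fold change -0.38 ± 0.11, unadjusted p = 0.00261, not called). Gria4 was at 2345 to 2558 CPM in control and at 1798 to 2181 in cKO glycinergic nuclei, without overlap (-0.29 ± 0.10, unadjusted p = 0.0109, not called). In this type 50 genes (1.22%) separated downwards and 2.57% of genes in either direction. In starburst nuclei Grik2 was at 500 to 649 CPM in 4 control and at 330 to 515.5 in 3 cKO libraries, which overlap (-0.45 ± 0.20, unadjusted p = 0.0323, not called). No subunit passed the filter on low counts in cones, and 7, 7 and 4 of the 9 did in bipolar nuclei, rods and Mueller glia.

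Grik1 was the one subunit that DESeq2 called, in amacrine nuclei. Its level there was 238, 224, 227 and 284 CPM in control replicates 1 to 4 and 138, 128, 110 and 180 CPM in cKO replicates 10 to 13. All 4 cKO libraries were below all 4 control libraries (two-sided exact permutation p = 0.0286, the smallest that 70 assignments can give). The same held for 0.991% of all genes tested in this class, and 3.12% separated in either direction. The log2 fold change was -0.83 ± 0.14 with an edgeR adjusted p of 0.146 and a DESeq2 adjusted p of 5.8e-04. The edgeR call was made with the stricter gate, without the filter on low counts and without cKO replicate 13.

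Of the amacrine types, Grik1 was called between genotypes in the other GABAergic nuclei, of which there were 456 control and 528 cKO nuclei. Grik1 was at 303, 290, 289 and 371 CPM in control replicates 1 to 4 and at 162, 151, 145 and 162 CPM in cKO replicates 10 to 13. The control values rested on 183, 271, 251 and 338 UMIs and the cKO values on 160, 79, 123 and 220. The groups did not overlap, and the means were 313 ± 39 and 155 ± 8.5 CPM (SD, n = 4 each), a ratio of 0.494. Grik1 fell by 1.05 ± 0.12 on the log2 scale (edgeR adjusted p = 3.1e-04), and it was the only gene of 9760 that edgeR called (0.0102%), while 456 genes had an unadjusted p below 0.05. DESeq2 called 4 genes: Grik1 (adjusted p = 1.9e-09), the immediate early genes Nr4a3 (log2 fold change 1.47) and Egr1 (1.55), and Lars2 (0.75), the last 3 being higher in cKO libraries. Their part in the Grik1 result was not tested. The study itself reported no differentially expressed genes between these genotypes in the retina. It used PyDESeq2 per clustered cell type after removal of ambient RNA. The call for Grik1 held in all 15 alternative analyses, with log2 fold changes from -1.11 to -0.85 and an edgeR or DESeq2 adjusted p of at most 0.0354. The exact permutation test gave p = 0.0286, the smallest it can, and 0.171 after Benjamini-Hochberg adjustment over the 6 types compared. Among all genes tested in this type, 95 (0.973%) had every cKO library below every control library, and 2.97% separated in either direction. A further 1224 amacrine nuclei met no type gate, and in these Grik1 was at 228, 244, 247 and 284 CPM in control replicates 1 to 4 and at 155, 134, 109 and 236 CPM in cKO replicates 10 to 13. These groups overlapped through cKO replicate 13 (exact permutation p = 0.0571), and whether the genotype difference itself differed between amacrine types was not tested.

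The other 8 subunits in the same nuclei had log2 fold changes from -0.16 (Gria4) to 0.47 (Grik3), and 0 were called. Marker panels of other classes were compared in these sums. The 7-gene bipolar panel summed to 11.8 to 31.5 CPM in control and to 12.5 to 32.5 CPM in cKO libraries, and the horizontal panel to 26.5 to 39.6 and 22.3 to 42.1. The 5-gene OFF cone bipolar panel, which holds Erbb4 and Zfhx4, summed to 600 to 1023 CPM in control and to 527 to 738 in cKO libraries, and the part of that difference in the Grik1 result was not tested. All 5 genes of that panel and all 7 of the bipolar panel were detected. The glycinergic markers Slc6a9 and Slc6a5 were at 0, which the gate requires.

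The share of nuclei with a Grik1 UMI was examined after these levels had been seen. It was 57.7 ± 7.0% in control and 46.5 ± 9.0% in cKO other GABAergic nuclei (SD, n = 4 each, exact permutation p = 0.11), at mean median depths of 6710 and 6300 UMIs. With every nucleus thinned to 2000 UMIs, which left out 7 control and 8 cKO nuclei, the shares were 35.9, 30.8, 36.8 and 36.8% in control and 23.2, 20.6, 21.8 and 26.3% in cKO libraries. These do not overlap (exact permutation p = 0.0286, the smallest possible). Shares and levels rest on the same Grik1 UMIs of the same nuclei, so the shares describe the difference and are no independent test of it. How many of all genes separate in thinned shares, in these nuclei or in RGCs, was not counted. Glycinergic nuclei, in which Grik1 was near the empty-droplet level, had thinned shares of 4.76 ± 4.60% and 3.30 ± 2.81% as a background, at median depths of 4213 and 3938 UMIs. The mean number of Grik1 UMIs in nuclei that had any, averaged over libraries, was 4.08 in control and 2.29 in cKO libraries. In RGCs the thinned share went the other way, at 27.2 ± 0.255% in control and 31.9 ± 1.05% in cKO libraries (exact permutation p = 0.0286, the smallest possible), with 66 control and 550 cKO nuclei left out. Unthinned, the RGC shares were 51.7 and 53.4% (exact permutation p = 0.657).

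**Figure D5:**
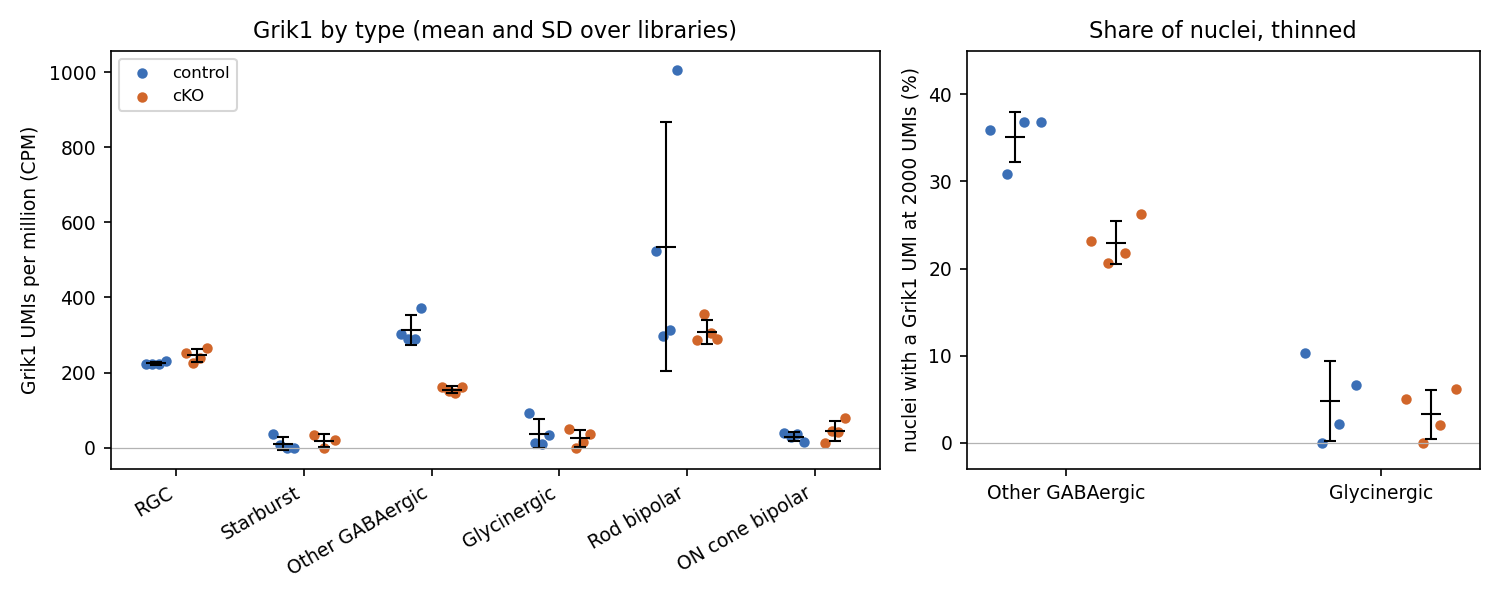
Left, Grik1 in CPM by class and type, each point 1 library (blue control, orange cKO), with black marks for the group mean and SD. Right, the percentage of nuclei with a Grik1 UMI after thinning to 2000 UMIs: the 4 cKO libraries of other GABAergic nuclei (20.6 to 26.3%) sit below the 4 control libraries (30.8 to 36.8%).

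To see which of these nuclei carried Grik1, 10 genes were picked in control replicates 1 and 2 by their ratio between nuclei with at least 2 and with 0 Grik1 UMIs. They were Tlr4, Kcnq5, Tac2, Gm45352, Gm15155, 4930445B16Rik, Lrrc4c, Sorcs1, Pdzd2 and Ptpro, and their choice followed the Grik1 values, so what follows is a description without a test. Nuclei above the 75th percentile of their summed level, a limit set in replicates 1 and 2, made up 26.2 and 33.3% of control replicates 3 and 4 and 23.9 to 30% of the cKO libraries. In those nuclei Grik1 was at 425 and 583 CPM in control replicates 3 and 4 and at 236, 119, 168 and 254 CPM in cKO replicates 10 to 13. In the remaining nuclei it was at 224 and 228 CPM in the same control libraries and at 118, 166, 135 and 131 CPM in cKO libraries. Both parts were thus lower in every cKO library. The 10 genes themselves had genotype log2 fold changes from -0.10 (Gm15155) to 0.37 (Tac2, encoding a tachykinin neuropeptide) in other GABAergic nuclei, and 0 were called. A choice of 10 genes over all 4 control libraries, with Tlr4, Kcnq5, Tac2 and Gm15155 in both, gave log2 fold changes from -0.50 (Abtb2, unadjusted p = 0.0107) and -0.46 (Chst8) to 0.37 (Tac2), and 0 were called. Their log2 ratios between nuclei with at least 2 and with 0 Grik1 UMIs were 1.97 to 3.71 in control libraries, where they were chosen. In cKO libraries the ratios were 0.29 to 0.87. Genes chosen for high ratios in control libraries are bound to have lower ratios elsewhere, so no genotype difference is read from this. The groups compared also differed, with 195 and 196 control nuclei at 2 or more and at 0 Grik1 UMIs, and 131 and 277 cKO nuclei.

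The genotype difference of Grik1 was then compared between classes in 1 model. It was lower in amacrine nuclei than in RGCs by 0.91 ± 0.09 on the log2 scale (edgeR adjusted p = 5.1e-06), and 2 of 17484 genes (0.0114%) were called, Grik1 and Kitl. The RGC levels were 223, 223, 222 and 231 CPM in control and 252, 226, 238 and 266 CPM in cKO libraries, which overlap (log2 fold change 0.07 ± 0.07). Amacrine minus bipolar nuclei gave -0.35 ± 0.19 (edgeR adjusted p = 0.999), and 0 of 11632 genes (0.0%) were called there, with 530 at an unadjusted p below 0.05 and 0 by DESeq2. Without cKO replicate 12 the value was -0.105 and without cKO replicate 13 it was -0.63 (unadjusted p = 8.0e-04, edgeR adjusted p = 0.996). A difference between amacrine and bipolar nuclei was thus not shown.

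In the other 5 types Grik1 was not called. The lowest unadjusted p among them was that of rod bipolar nuclei, where control replicates 1 to 4 stood at 524, 298, 312 and 1006 CPM and cKO replicates at 286, 355, 305 and 288 (log2 fold change -0.80 ± 0.27, edgeR adjusted p = 0.999, unadjusted p = 0.00742). The groups overlapped, and without control replicate 4 the log2 fold change was -0.32. Bipolar nuclei as a class, which include those of no type, gave -0.47 ± 0.15 and were not called. In OFF cone bipolar nuclei the change was -0.17 ± 0.17. Starburst, glycinergic and ON cone bipolar nuclei had 13, 49 and 41 Grik1 UMIs in all and did not pass the filter on low counts for this gene. edgeR called 0 genes in each of these 5 types, with 46 (OFF cone bipolar) to 179 (glycinergic) genes at an unadjusted p below 0.05 and 0 by DESeq2.

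Grik1 and Olig2, the locus that carries the Cre insertion, lie 2.93 Mb apart on chromosome 16 (Olig2 at chr16:91019435-91025567). Olig2 itself had 1 UMI in RGCs of the control libraries and 0 in all other classes and groups. Of the genes within 5 Mb of Olig2, 47 were tested in other GABAergic nuclei and 3 had an unadjusted p below 0.05 (6.38%, against 4.67% of all genes). These were Grik1, Gm15965 (log2 fold change -1.0 ± 0.39) and Mrps6 (0.59 ± 0.21). Gm15965 was also at -0.48 ± 0.15 in RGCs (edgeR unadjusted p = 0.00693) and at -0.82 ± 0.28 in amacrine nuclei as a class (edgeR unadjusted p = 0.0101), neither of which passed the adjusted threshold. In RGCs 2 of 84 such genes had an unadjusted p below 0.05 (2.38%, against 3.31% of all genes). At that unadjusted threshold there were 4 of 56 in amacrine nuclei as a class (7.14% against 4.13%), among them Smim11 (0.93 ± 0.26). Mueller glia had 2 of 25 (8.0% against 3.18%), and 0 such genes were called in any of these classes. Over all 12 comparisons of genotype the share ranged from 0.0 to 8.0%, lay above that of all genes in 6 and below it in 6, and was 0 in 4 of the latter. Grik1 lies in this window and is itself counted in the shares of amacrine, other GABAergic, bipolar and rod bipolar nuclei. In rod bipolar nuclei it was the only gene counted (1 of 22 tested). The shares are therefore no view of the window apart from Grik1, and shares without it were not computed. Because every cKO library carries the Cre insertion with its flanking chromosome and no control does, an effect of Piezo2 loss and one of that locus cannot be told apart here.

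For each subunit the 2 genes most alike in their pattern were found over 11 classes and types of the control libraries, among 12034 genes (Pearson's r of mean log2(CPM + 1), a description across classes that share libraries). Gria1 was most like Socs2 (r = 0.94) and Elmo1 (0.94), Gria2 like Plcl2 (0.95) and Dok6 (0.94), Gria3 like Spata6l (0.98) and Gm28050 (0.97), and Gria4 like Nol4 and Dlgap1 (0.96 each). Grik1 was most like Tmem59l (0.89) and Dusp8 (0.89). Grik2 was most like Cacng3 (0.98), a TARP gene of the auxiliary list, and Spata6l (0.96). Grik3 was most like Hcn2, a pacemaker channel gene (0.90), and A830018L16Rik (0.89), Grik4 like Nav2 (0.94) and Capn2 (0.92), and Grik5 like Zfp141 and Washc4 (0.88 each).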

How the data were processed

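The deposited files hold raw UMI counts per gene for every barcode of 8 libraries, made by the authors with Cell Ranger 7.0.0 on the GRCm39-2024-A reference, and no later step of the authors (such as their removal of ambient RNA) is in them. The subunit genes and all gene lists were chosen with earlier results of these data known. From the counts, nuclei were called by an order-of-magnitude step and a test against the ambient profile (12695972 barcodes, 45918 called), filtered (at least 200 genes, at most 5% mitochondrial counts, and limits of 5 and 3 median absolute deviations), and the 1377 nuclei (3.79% of those left after filtering) with the highest Scrublet scores were removed as doublets, their number set by 0.8% per 1000 nuclei. Classes required at least 3 UMIs from at least 2 genes of a panel and a panel share over a class limit, such as 8 per 10000 UMIs for RGCs and 4 for amacrine nuclei. Counts were summed per library and class where more than 10 nuclei were present and tested with edgeR 4.0.16 (TMM, filterByExpr, quasi-likelihood F test, R 4.3.3) over all genes. Class comparisons had the library as a block, genotype comparisons genotype alone. The standard error is the log2 fold change divided by the root of F. Levels of Grik1 were also compared by exact permutation over libraries. Alternatives were DESeq2 1.42.0, no TMM factors, no filter, the first calling step alone, doublets kept, limits 1.5 times stricter, thinning to 1000 UMIs, no library term, and each library left out. The named genes are the 9 subunits throughout, the 2 highest and 2 lowest of the auxiliary list per comparison, and the 2 most alike genes per subunit among genes with a class mean of at least 20 CPM. Genes named beyond that rule (Neto1 by library, Kitl, the genes DESeq2 called, the 10 companions of Grik1 and genes near Olig2) were named after their values were seen. Depth limits low counts, and the upper limits given for counts of 0 cover counting error only. The edgeR step was tested on simulated data. Coordinates are those of GENCODE vM39 on GRCm39.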

Additional observations from a re-analysis of the deposited data

Results flagged for a closer look

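The genotype difference of Grik1 differed between classes by a test of that difference: amacrine minus RGC nuclei gave a log2 value of -0.91 ± 0.09 (edgeR adjusted p = 5.1e-06). All 4 cKO libraries were below all 4 control libraries in amacrine nuclei, as for 0.991% of genes tested there (3.12% separated in either direction). The groups overlapped in RGCs.

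Single libraries stood apart from the other 3 of their group in 20 of 175 groups of 4 examined by Dixon's test, where chance flags about 1 in 20 groups. In 8 of the 20 the other 3 libraries were at 0, so that any count stands apart. In RGCs, control replicate 4 was high for Gria3 (584 CPM) and Grik1 (231 CPM) and cKO replicate 10 for Grik4 (66.2 CPM). In other GABAergic nuclei, control replicate 4 was high for Grik1 at 371 CPM against 289 to 303 in the other 3, control replicate 3 was low for Gria2 (1470 CPM), and cKO replicate 12 was low for Grik2 (1124 CPM). In glycinergic nuclei, cKO replicate 12 was low for Gria3 (1050 CPM).

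In rod bipolar nuclei, control replicate 4 was high for Gria4 (137 CPM) and Grik3 (24.4 CPM). In ON cone bipolar nuclei, Grik2 was high in control replicate 4 (371 CPM) and cKO replicate 13 (7.15 CPM). In OFF cone bipolar nuclei, control replicate 2 was high for Grik2 (107 CPM), cKO replicate 12 for Grik3 (8.15 CPM), and control replicate 1 (65.8 CPM) and cKO replicate 10 (8.61 CPM) for Grik4. In cones, cKO replicate 13 was high for Gria1 (10.6 CPM), and control replicates 2, 4 and 1 were high for Grik1 (8.79 CPM), Grik2 (18.8 CPM) and Grik4 (29.4 CPM). In Mueller glia, cKO replicate 11 was at 0.0 CPM for Grik2 while the other 3 were near 15 to 16. Control replicate 4 accounts for 7 of the 20. Without it, Grik1 in other GABAergic nuclei fell by 0.94 on the log2 scale and was still called.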

How the results depend on the processing

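The number of subunit calls between classes was 60 and ranged from 55 to 63 over the alternatives, and that in gated RGC nuclei was 23 and ranged from 22 to 25. Without the replicate block (no library term) these were 58 and 23. No paired analysis was possible because control libraries are numbered 1 to 4 and cKO libraries 10 to 13, so no number is shared. Of 83 called subunit values, 10 lost a call under some alternative. Of 1323 recomputed values 1278 kept the call, 44 lost it and 1 reversed: Grik1 in rods against RGCs, at 1.04 with the order-of-magnitude step alone. The count of subunits called between genotypes in the 6 classes was 0, and it was 1 with DESeq2 and 1 with the stricter gate (Grik1 in amacrine nuclei each time), and 3 without the filter on low counts, which added Grik1 and Gria4 in rods. Leaving out 1 library gave 0 to 1, the 1 being Grik1 in amacrine nuclei without cKO replicate 13 (adjusted p = 0.0054). The count of types with Grik1 called was 1, and 2 without the filter on low counts, which added rod bipolar nuclei. Auxiliary calls were 158, with 180 without the filter on low counts and 104 with nuclei thinned to 1000 UMIs. Both settings can change which genes are tested, so these counts need not be out of the 204 main tests. The cause of these changes was not tested. For Grik1 in amacrine minus RGC nuclei all 15 alternatives kept the call, from -1.02 to -0.82. The number of nuclei limits the small classes: since more than 10 were required, horizontal nuclei were tested in 3 libraries, and starburst nuclei in 7.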
